A study of Mus musculus with 24 samples.

Results

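The 10 genes described here encode the route by which pyruvate enters mitochondria and becomes acetyl-CoA, and the kinases that switch this step off. They are the pyruvate dehydrogenase subunits Pdha1, Pdhb, Dlat, Dld and Pdhx, the pyruvate dehydrogenase kinases Pdk1, Pdk2 and Pdk4, and the mitochondrial pyruvate carrier genes Mpc1 and Mpc2. They were chosen by name among the 16821 genes of the table, and the choice was made with results of these same libraries known, so their values are given as a description and not as independent evidence. All 10 were found, and all 10 were among the 15176 genes kept by the filter on low counts. RNA was taken from the inguinal fat pad, a subcutaneous white depot (IWAT), of 24 male C57BL6/J mice, 6 on each of 4 diets. The elemental control diet supplied free amino acids with 0.86% methionine, and the elemental methionine-restricted (MR) diet supplied free amino acids with 0.17% methionine. The casein control diet contained casein with 0.86% methionine, and the oxidized casein MR diet contained casein whose methionine had been lost by oxidation and then restored to 0.17%. Each group had 8 mice on the diet, starting at 5 weeks of age and lasting 12 weeks, and the animals, then 4 months old, were fasted for 4 h before they were killed. The series design text names the liver, whereas IWAT is named in the series title, in the source field and in the protocols. Each library is 1 mouse. The casein comparison changes oxidation of the casein and the methionine level at once, and these cannot be told apart.

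Pyruvate made in the cytosol crosses the inner mitochondrial membrane through a carrier built from MPC1 and MPC2. The pyruvate dehydrogenase complex then removes carbon dioxide from it and passes the remaining acetyl group to coenzyme A. Kinases of the PDK family phosphorylate the alpha subunit of the first enzyme and inactivate the complex, and phosphatases reverse this. In fat cells the acetyl-CoA is burned in the tricarboxylic acid cycle or leaves the mitochondria as citrate to be used for fatty acid synthesis.

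Library totals ran from 7468336 to 19868913 counts. The 8 markers of white and general adipocytes were detected in every diet group, with summed levels of 15918 to 39822 CPM over the 24 libraries, CPM being a gene's count per library total scaled by TMM to a common size. The pad holds a lymph node. A score of 10 B cell markers (mean log2 CPM) was cut at its largest gap between libraries. The 15 libraries above the cut (4.51 to 6.22) are called with B cell transcripts, and the 9 below it (-0.86 to 2.40) without. In those 9 the markers were low and not absent, with a summed level of at least 5.85 CPM. Those called with them comprised 4 elemental control, 5 elemental MR, 4 casein control and 2 oxidized casein MR mice. Acta1, the actin of skeletal muscle, was high in elemental control 2 (2946 CPM) and elemental MR 2 (1239 CPM) and did not exceed 166.3 CPM in any other library. In bulk tissue, fewer cells of a type and less RNA per cell cannot be told apart.

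MR on casein was accompanied by higher levels of most of these genes. In the edgeR quasi-likelihood test with Benjamini-Hochberg adjustment, 8 of the 10 rose at an adjusted p under 0.05, in a comparison where 3.35% of all tested genes rose. The 8 were the 5 complex subunits, Pdk2, Mpc1 and Mpc2. All 10 log2 fold changes were above 0 (41.9% of tested genes were), from 0.54 to 1.63, with a median of 1.03 beside -0.06 for all tested genes. In 5 of the 10 (Pdha1, Dlat, Dld, Pdk2 and Mpc2), all 6 oxidized casein MR mice lay above all 6 casein controls, which held for 2.27% of tested genes. With MR on elemental amino acids 0 of the 10 passed, where 0.244% of tested genes did, and 7 of the 10 had an unadjusted p under 0.05 (10.2% of tested genes). By DESeq2, 1 of the 10 passed there, as did 213 of the 12506 genes that DESeq2 gave an adjusted p. The log2 fold changes were again all above 0 (46.1% of tested genes were), from 0.31 to 1.25, with a median of 0.50 beside -0.02 for all tested genes. In 0 of the 10 did all elemental MR mice lie above all elemental controls, which held for 0.573% of tested genes.

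**Figure D1:**
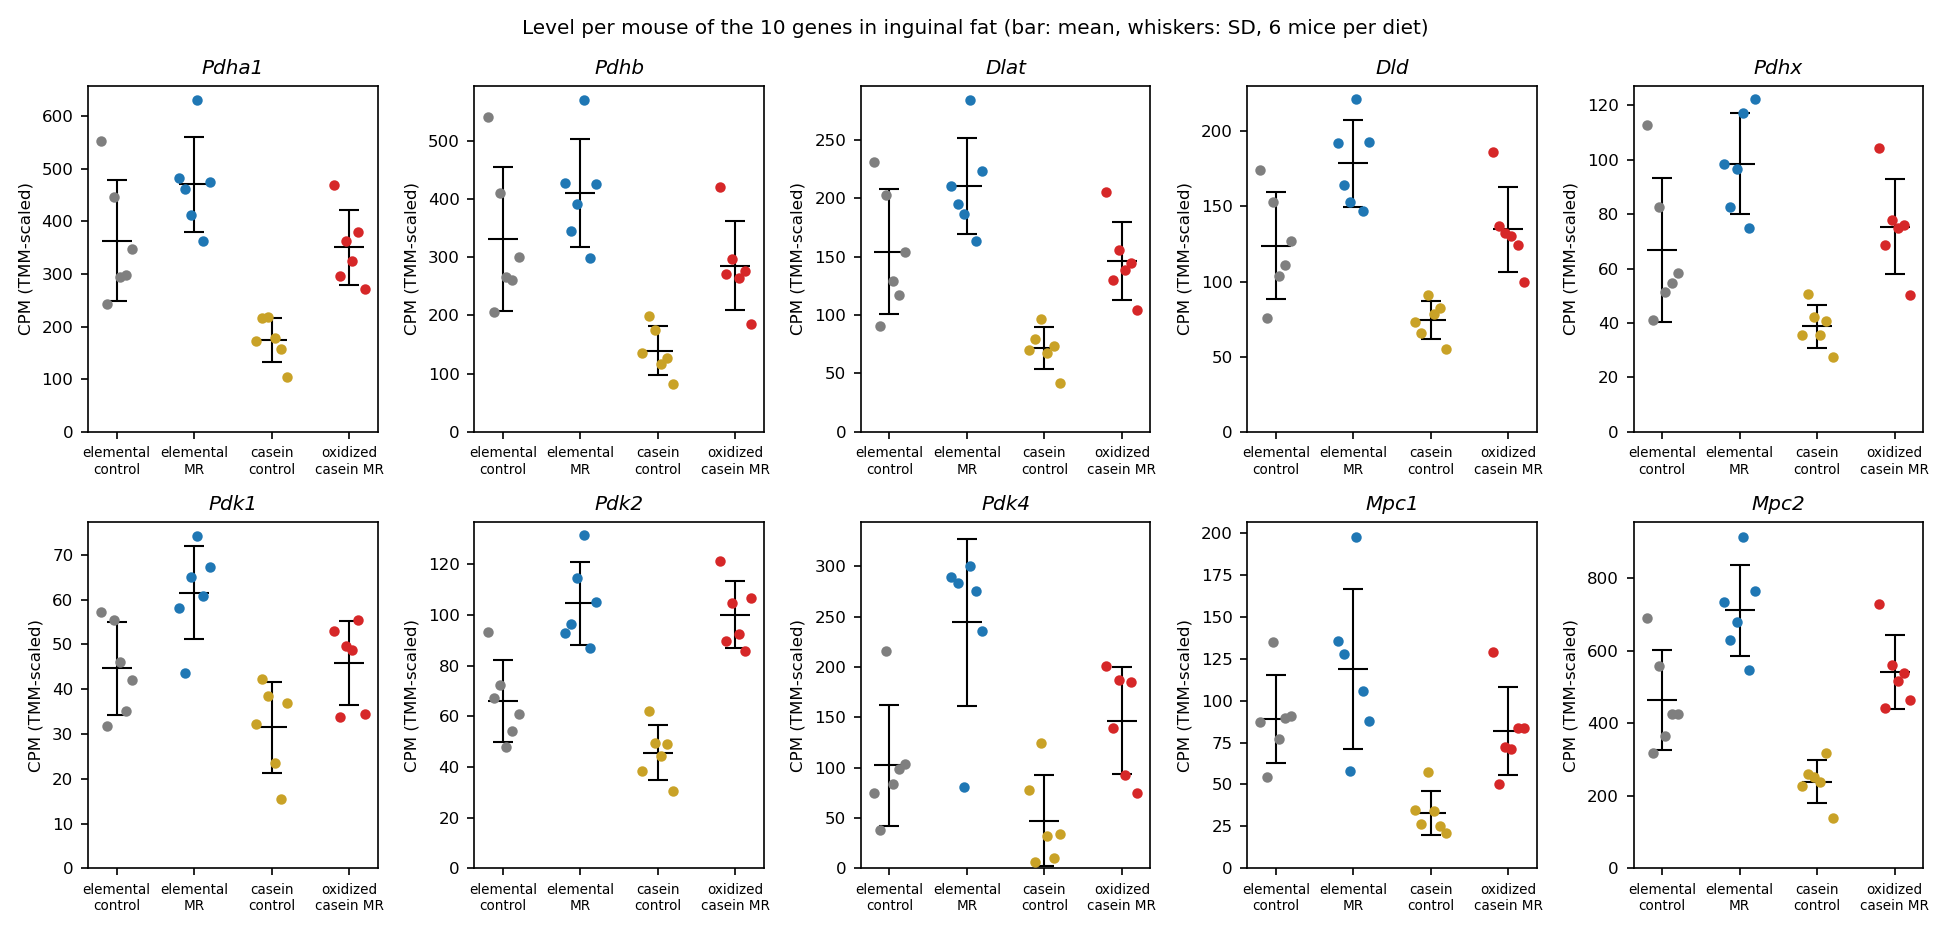
Level of each of the 10 genes in each mouse, in CPM with library totals scaled by TMM (vertical axis, from 0), by diet; points are mice, bars the mean of 6 and whiskers the SD. Casein controls have the lowest mean for every gene and elemental MR the highest.

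Pdha1 encodes the alpha subunit of the first enzyme, the one that the kinases phosphorylate, and lies on chromosome X (GRCm38, 160122209 to 160138413, minus strand). Its lowest, median and highest levels were 243.7, 322.3 and 551.7 CPM in elemental controls and 361.7, 467.5 and 630.6 CPM in elemental MR. They were 104.9, 174.9 and 218.4 CPM in casein controls and 271.7, 342.9 and 469.0 CPM in oxidized casein MR. The casein groups did not overlap, while the elemental groups did. The rise on casein was 2.005-fold (log2 SE 0.20, edgeR adjusted p = 0.00619), and on elemental amino acids the ratio was 1.29 (log2 SE 0.20, adjusted p = 0.541). The exons of Pdha1 overlap those of Map3k15 on the other strand, which had 1 to 24 counts per library, and the strand setting of the counting is not given in the sources used here.

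Pdhb, the beta subunit of the same enzyme (chromosome 14, 8165996 to 8173025), ranged from 81.9 to 198.4 CPM in casein controls (median 131.5) and from 184.7 to 420.0 CPM in oxidized casein MR (median 273.4). Here 5 of 6 MR mice were above every casein control, and the rise was 2.05-fold (log2 SE 0.23, edgeR adjusted p = 0.0116). In elemental controls it ranged from 205.2 to 540.9 CPM (median 284.1) and in elemental MR from 299.0 to 570.0 CPM (median 409.1), a ratio of 1.24 that did not pass (adjusted p = 0.733). Pdhb thus had the smallest elemental fold change of the 10 genes.

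Dlat, the acetyltransferase that forms the core of the complex (chromosome 9, 50634633 to 50659780), stood at 41.6 to 96.4 CPM in casein controls and 104.5 to 205.1 CPM in oxidized casein MR. Dld, the dehydrogenase that reoxidizes the lipoyl groups and also serves the sister 2-oxoacid complexes (chromosome 12, 31331277 to 31351453), stood at 55.3 to 91.3 CPM in casein controls and 99.9 to 186.3 CPM in oxidized casein MR. Neither gene overlapped between the casein groups. Dlat rose 2.05-fold (log2 SE 0.21, adjusted p = 0.00725) and Dld 1.81-fold (log2 SE 0.17, adjusted p = 0.00706). Pdhx, which anchors Dld to the core (chromosome 2, 103021075 to 103073513), rose 1.94-fold (log2 SE 0.21, adjusted p = 0.00983), from 27.5 to 50.8 CPM in casein controls to 50.3 to 104.2 CPM in oxidized casein MR, a range that overlapped by 1 mouse of the MR group. On elemental amino acids the ratios were 1.37 for Dlat, 1.44 for Dld and 1.48 for Pdhx, none of which passed (adjusted p from 0.234 to 0.466), and in each of the 3 the groups overlapped. Pdhx passed there in edgeR when elemental control 1 was left out (adjusted p = 0.0386), where 252 of 15431 genes were called.

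Among the kinases, Pdk2, the widely expressed member of the family (chromosome 11, 95026258 to 95041354), had the smallest adjusted p of the 10 genes on both protein sources. Its lowest, median and highest levels were 30.5, 46.7 and 62.0 CPM in casein controls and 85.9, 98.6 and 121.3 CPM in oxidized casein MR. All 6 MR mice on casein lay above all 6 controls, and the rise was 2.195-fold (log2 SE 0.16, edgeR adjusted p = 0.00073). In elemental controls the levels were 47.9, 64.2 and 93.4 CPM and in elemental MR 86.9, 100.8 and 131.4 CPM. There 4 of 6 MR mice were above every control, and the 1.58-fold ratio had a log2 SE of 0.16 and an adjusted p of 0.0823. That call depended on the tool and on the mice: Pdk2 passed by DESeq2 (adjusted p = 0.00894), and with edgeR when elemental control 1 was left out (adjusted p = 0.012).

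Pdk1, a kinase known for its induction by hypoxia (chromosome 2, 71873224 to 71903858), had the lowest mean level of the 10 in every diet and differed least on casein. It ranged from 15.4 to 42.3 CPM in casein controls (median 34.6) and from 33.8 to 55.4 CPM in oxidized casein MR (median 49.2), and from 31.8 to 57.2 CPM in elemental controls (median 44.1) and 43.7 to 74.3 CPM in elemental MR (median 62.9). Groups overlapped on both protein sources. The ratios were 1.46 on casein (log2 SE 0.20, edgeR adjusted p = 0.163) and 1.38 on elemental amino acids (log2 SE 0.20, adjusted p = 0.416).

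Pdk4, the kinase known for induction by fasting and by fatty acids (chromosome 6, 5483351 to 5496309), had an SD of 1.46 log2 over the 24 libraries, against 0.51 to 0.84 for the other members. In casein controls the lowest, median and highest levels were 6.35, 33.0 and 124.6 CPM, and in oxidized casein MR 74.4, 162.3 and 200.5 CPM. In elemental controls they were 37.6, 90.9 and 215.8 CPM, and in elemental MR 80.9, 279.5 and 299.9 CPM. The coefficient of variation was 96.0% in casein controls and 34.0% in elemental MR, where 5 mice lay between 235.7 and 299.9 CPM and elemental MR 3 alone at 80.9 CPM. The casein ratio of 3.09 was the highest of the 10 genes but had a log2 SE of 0.55 and did not pass (edgeR adjusted p = 0.114), and the elemental ratio of 2.39 did not pass either (log2 SE 0.54, adjusted p = 0.416). In 24 edgeR fits that each left out 1 mouse, Pdk4 passed on casein in 1 (adjusted p = 0.0245), and adjusted p reached 0.247. The fit that passed lacked casein control 3, the highest of its group at 124.6 CPM, and had the largest fold change of the 24. The smallest came without casein control 2, the lowest of its group at 6.35 CPM. By DESeq2 Pdk4 passed on casein with all mice (adjusted p = 0.037).

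Both carrier genes rose on casein. Mpc2 (chromosome 1, 165460637 to 165481214) was the most abundant of the 10, and had lowest, median and highest levels of 137.9, 245.3 and 319.0 CPM in casein controls and 442.9, 527.3 and 729.7 CPM in oxidized casein MR. The casein groups did not overlap, with a rise of 2.27-fold (log2 SE 0.19, edgeR adjusted p = 0.00175). In elemental controls it ranged from 318.4 to 690.6 CPM and in elemental MR from 546.2 to 914.7 CPM, a ratio of 1.53 (log2 SE 0.19, adjusted p = 0.202). Mpc2 passed there in edgeR when elemental control 1 was left out (adjusted p = 0.0351), where 252 of 15431 genes were called.

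Mpc1, the partner subunit (chromosome 17, 8282904 to 8297661), ranged from 21.1 to 57.7 CPM in casein controls (median 30.4) and from 50.2 to 128.9 CPM in oxidized casein MR (median 78.0). It rose 2.46-fold (log2 SE 0.28, edgeR adjusted p = 0.00951), with 5 of 6 MR mice above every casein control. In elemental controls it ranged from 54.4 to 134.9 CPM and in elemental MR from 58.1 to 197.3 CPM, a ratio of 1.33 (adjusted p = 0.665). Its exons overlap an antisense transcript, 4930506C21Rik, that is not analysed here, and the genome holds a processed pseudogene, Mpc1-ps, so its counts are uncertain where reads fit more than 1 of these.

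**Figure D2:**
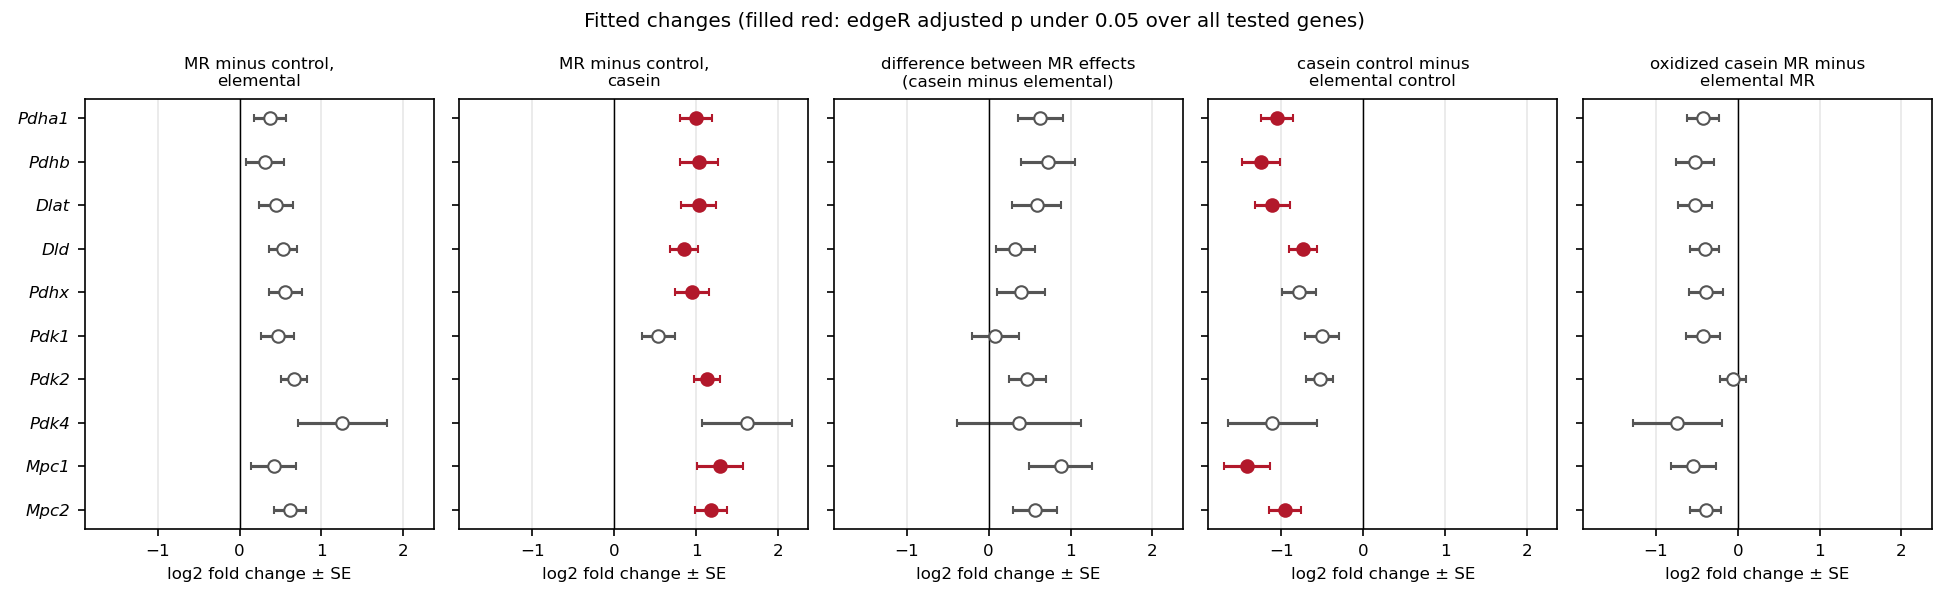
Log2 fold change with its SE for the 10 genes (rows) in the 5 comparisons (panels), with filled red symbols for an adjusted p under 0.05 over all tested genes in edgeR. The filled symbols are the 8 rises with MR on casein and the 6 lower levels of casein controls beside elemental controls.

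The control diets also differed from each other. Casein controls were lower than elemental controls in 6 of the 10 genes, where 0.646% of tested genes were lower at an adjusted p under 0.05. The 6 were Pdha1 (2.08-fold lower, log2 SE 0.20, edgeR adjusted p = 0.0122), Pdhb (2.37-fold lower, SE 0.23, adjusted p = 0.0125), Dlat (2.16-fold lower, SE 0.21, adjusted p = 0.0144), Dld (1.66-fold lower, SE 0.17, adjusted p = 0.0486), Mpc1 (2.68-fold lower, SE 0.28, adjusted p = 0.0176) and Mpc2 (1.94-fold lower, SE 0.19, adjusted p = 0.019). Pdhx and the 3 kinases did not pass, with ratios of casein to elemental control of 0.58 for Pdhx, 0.70 for Pdk1, 0.69 for Pdk2 and 0.46 for Pdk4. All 10 log2 fold changes were below 0 (46.4% of tested genes were), with a median of -1.01 beside 0.02 for all tested genes. All casein controls lay below all elemental controls for Pdha1 and Pdhb, which held for 0.751% of tested genes. The number called here varied with the libraries used, for all genes as for these 10. It was 2 (24 of 15263 genes) without elemental control 3, 4 without elemental control 1 (30 of 15431), casein control 1 (35 of 15384) or casein control 6 (33 of 15361), and 0 (2 of 14628) with the control libraries fitted alone, where all 24 gave 6 (100 of 15176). It was 7 without elemental control 2 (202 of 15243) or elemental control 4 (194 of 15236), and 8 by DESeq2 (411 of 12826). Among libraries with B cell transcripts 5 of the 10 were lower (177 of 15644 genes), and among those without, with 2 mice per control diet, 0 were (0 of 15820 genes, with 950 at an unadjusted p under 0.05). The log2 fold changes with and without B cell transcripts were -0.95 and -0.23 for Dld, -1.31 and -0.58 for Dlat, -1.21 and -0.44 for Mpc2, -1.19 and -0.71 for Pdha1, -1.35 and -0.95 for Pdhb and -1.47 and -1.30 for Mpc1. All 6 were thus below 0 on both sides, and the difference between the sides was not tested. This comparison and the MR comparison on casein share the casein control libraries.

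Between oxidized casein MR and elemental MR, 0 of the 10 genes passed, where 0% of tested genes did in edgeR, and 6 had an unadjusted p under 0.05 (6.98% of tested genes). DESeq2 called 0 of the 10 and 12 of 15398 genes. All 10 log2 fold changes were below 0 (54.4% of tested genes were), from -0.74 for Pdk4 to -0.06 for Pdk2, with a median of -0.43 beside -0.03. Pdk2 stood at 100.1 ± 13.3 CPM in oxidized casein MR and 104.5 ± 16.3 CPM in elemental MR (SD, n = 6 each). Its difference of -0.06 log2 had an SE of 0.16 and crossed 0 when single MR mice were left out.

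The MR effects themselves were not shown to differ between protein sources. In the test of the difference, casein minus elemental, 0 of the 10 passed in edgeR, where 0% of tested genes did, and limma voom (0 of 15176 genes) and DESeq2 (2 of 16686 genes) also called 0 of the 10. Adjusted p ran from 0.91 to 0.963, and 5 of the 10 had an unadjusted p under 0.05 (3.33% of tested genes). The differences were above 0 for all 10 genes (51.3% of tested genes), from 0.08 for Pdk1 to 0.88 for Mpc1 on the log2 scale, with SE of 0.29 and 0.39. Their median was 0.52, beside 0.01 for all tested genes.

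Marker transcripts of other cell types and tissues were described beside these genes. The summed level of the 8 brown and beige adipocyte markers ran from 242.0 to 3483 CPM in elemental controls, 3002 to 5897 CPM in elemental MR, 108.7 to 1247 CPM in casein controls and 783.2 to 4060 CPM in oxidized casein MR. None of the 8 was at 0 in all libraries of a diet. On casein 4 of these 8 rose, with a median log2 fold change of 1.70, where 3.35% of all tested genes rose. None of the 8 white and general adipocyte markers passed there, with a median of 0.26. With MR on elemental amino acids 0 of the 8 brown and beige markers passed, with a median of 1.06. Between the control diets the brown and beige markers had a median of -1.45 with 0 of 8 called, and the marker medians of other tissues were -3.60 for skeletal muscle, -2.46 for hepatocytes and -1.03 for red blood cells and 0 called in each list. The medians of these other tissues, in the same order, were -1.03, -1.77 and -0.54 with MR on elemental amino acids. With MR on casein they were 0.94, 0.20 and 0.76, again with 0 called in each list. Of 6 macrophage markers 1 was lower with MR on casein (median -0.37), where 579 of 15176 genes were called in either direction. With MR on elemental amino acids 0 of these 6 were called (median -0.63). The 6 adipose progenitor markers had medians of -0.23 on casein and -0.59 on elemental amino acids, with 0 called in either. The hepatocyte gene Alb stood at 5610 CPM in elemental control 6 and at no more than 864.7 CPM elsewhere. Without the 2 libraries high in Acta1, 7 of the 10 genes were lower in casein controls (170 of 15116 genes), and without the library high in Alb 5 were (53 of 15241). Mitochondrially encoded transcripts took 15.1% to 24.2% of counts in casein controls, 22.6% to 35.8% in oxidized casein MR, 21.6% to 31.1% in elemental controls and 29.5% to 36.2% in elemental MR. The part of the brown and beige markers and of the mitochondrial share in the results was not tested.

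On casein the 10 B cell markers had a median log2 fold change of -1.16, with 0 of 10 called. Their summed level ran from 5.85 to 966.7 CPM in casein controls, 6.51 to 631.9 CPM in oxidized casein MR, 7.06 to 628.7 CPM in elemental controls and 18.2 to 684.4 CPM in elemental MR. Among the libraries with B cell transcripts, of which 2 were oxidized casein MR, the 10 log2 fold changes on casein ran from 0.46 to 1.60, and 0 of the 10 passed in edgeR, where 5 of 15644 genes did (1531 at an unadjusted p under 0.05). Among the 9 without them they ran from 0.84 to 2.67, and 3 passed (Pdha1, Pdk1 and Pdk2), where 172 of 15820 genes did. With the B cell marker score as a covariate over all 24 libraries, 10 of 10 passed on casein (1039 of 15176 genes, either direction), 1 of 10 on elemental amino acids (Pdk2, adjusted p = 0.0239; 200 genes) and 8 of 10 between the control diets (349 genes). Without the covariate these fits called 579, 37 and 100 genes. Pdha1 changed by 1.04 log2 among libraries with B cell transcripts and by 1.08 among those without.

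Within diets, Pdk1 was lower in libraries without B cell transcripts in 3 of the 4 groups. In casein controls it was 32.2 to 42.3 CPM in the 4 libraries with them and 15.4 to 23.5 CPM in the 2 without. In elemental controls it was 42.0 to 57.2 CPM in 4 libraries and 31.8 to 35.1 CPM in 2, and in elemental MR 58.1 to 74.3 CPM in 5 and 43.7 CPM in 1. These ranges did not overlap, while in oxidized casein MR they did (49.6 to 55.4 CPM in 2 and 33.8 to 53.0 CPM in 4). Its log2 fold change on casein was 0.46 among libraries with B cell transcripts and 1.182 among those without. Ranges in elemental controls also did not overlap for Dlat (129.3 to 230.5 CPM with B cell transcripts, 90.4 to 117.3 CPM without). The same held for Pdhb (266.9 to 540.9 CPM with them, 205.2 to 260.4 CPM without). Pdk1, Dlat and Pdhb are named because their ranges separated, out of all the member genes in the 4 diets. The share of all tested genes whose ranges separated in this way was not counted. With 4 libraries against 2, or 5 against 1, full separation can readily arise by chance. These ranges are therefore a description, and a link to B cell transcripts was not tested. Elemental control 2 and elemental MR 2, both without B cell transcripts, were also the libraries high in Acta1 (2946 and 1239 CPM).

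**Figure D3:**
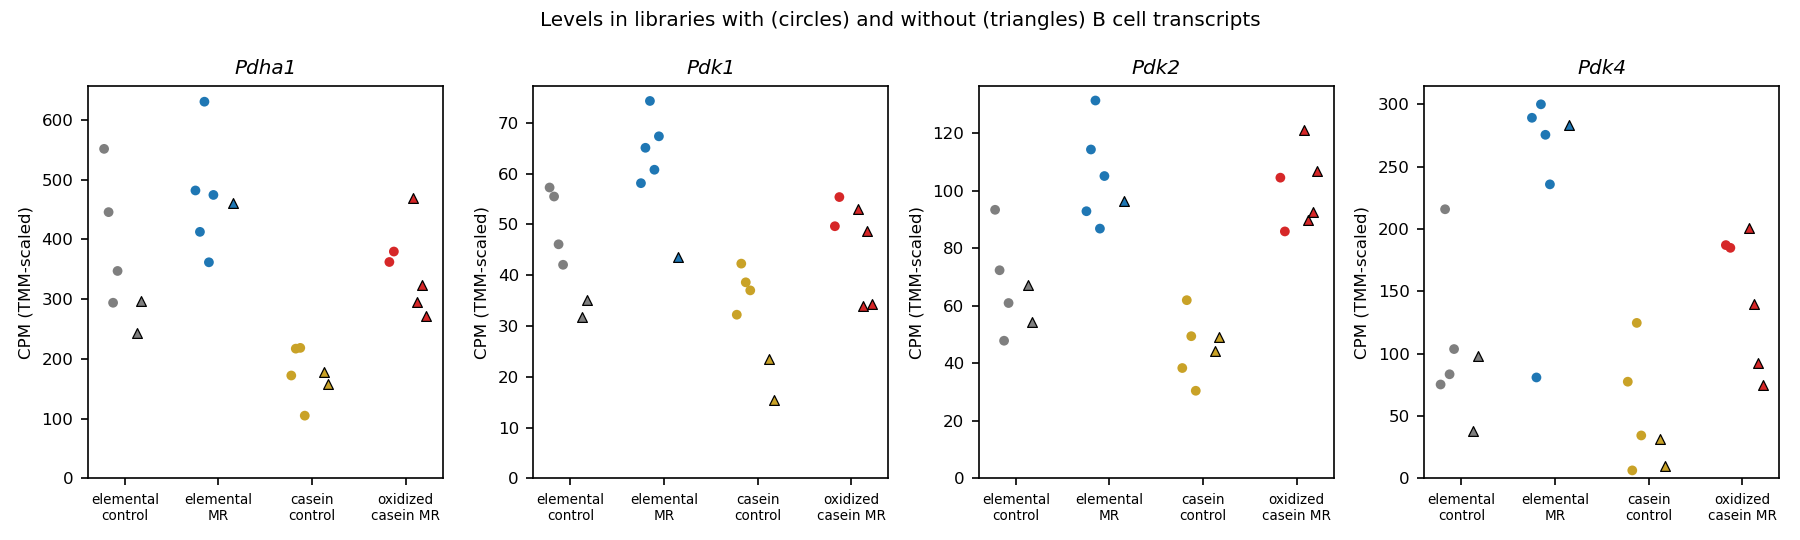
Levels of Pdha1, Pdk1, Pdk2 and Pdk4 in CPM scaled by TMM (vertical axis, from 0) for each mouse by diet. Circles are libraries with B cell transcripts and triangles those called without, where the markers were low. Pdk1 is lower in the triangles of both control diets and of elemental MR, whereas Pdk2 in oxidized casein MR lies above all casein controls with either symbol.

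Ratios within a library remove the scaling between libraries. A count of a 3′ end does not grow with transcript length, but capture can differ between genes, so ratios were compared across libraries and not read as stoichiometry. The log2 ratio of Dlat to Pdha1 ran from -1.45 to -1.09 over the 24 libraries (SD 0.11), and that of Pdhb to Pdha1 from -0.60 to -0.03 (SD 0.15). Dld and Pdhx were less even: Dld to Pdha1 ran from -1.72 to -0.92 (SD 0.21), with medians of -1.53 in elemental controls, -1.38 in elemental MR, -1.20 in casein controls and -1.39 in oxidized casein MR. Pdhx to Pdha1 ran from -2.57 to -1.93 (SD 0.19), with medians of -2.48, -2.28, -2.18 and -2.19 in the same order. The log2 ratio of Pdk4 to Pdha1 spread from -5.06 to -0.39 (SD 1.09). For the kinase Pdk2 the median log2 ratios to Pdha1, the subunit it targets, were -2.53 in elemental controls, -2.21 in elemental MR, -1.90 in casein controls and -1.80 in oxidized casein MR. The ranges of every pair of diets overlapped, and the ratios were not tested. The log2 ratio of Mpc1 to Mpc2 had medians of -2.25, -2.400, -2.75 and -2.77 in the same order of diets.

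**Figure D4:**
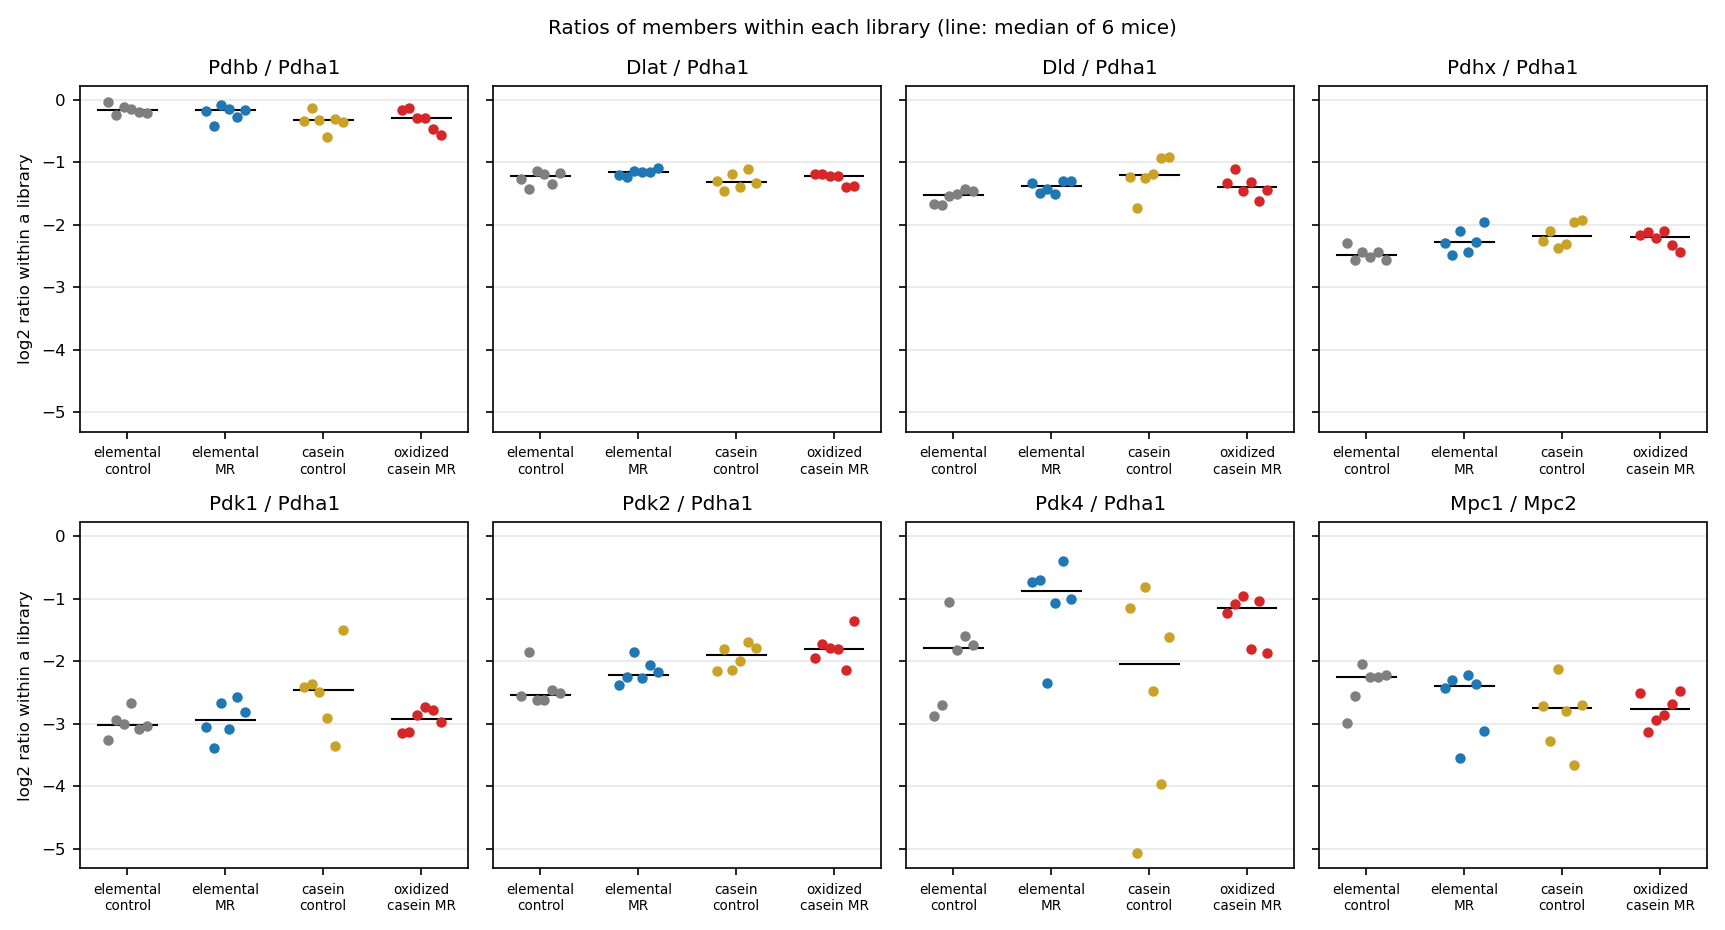
Log2 ratios of pairs of the 10 genes within each library (vertical axis) by diet, with points for mice and lines for the median of 6. Dlat to Pdha1 stays between -1.45 and -1.09, whereas Pdk4 to Pdha1 reaches -5.06 in a casein control.

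The starts of 3 of the genes are shown because these genes rose together on casein and differ in how many CCAAT boxes lie just upstream. These are the 250 bases before the annotated start in RefSeq (GRCm38.p6), read 5′ to 3′ on the strand of the gene, with CCAAT or its reverse complement ATTGG in capitals, and none of the 3 windows overlaps an annotated exon. Pdha1 (chrX:160138431-160138680, minus strand) has no such box, Dld (chr12:31351472-31351721, minus strand) has 1, and the first start of Pdk2 (chr11:95041372-95041621, minus strand) has 3.
Pdha1: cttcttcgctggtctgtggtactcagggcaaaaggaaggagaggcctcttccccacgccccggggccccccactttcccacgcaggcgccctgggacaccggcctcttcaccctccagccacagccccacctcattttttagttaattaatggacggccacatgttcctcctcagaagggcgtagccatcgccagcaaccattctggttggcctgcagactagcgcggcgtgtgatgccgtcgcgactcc
Dld: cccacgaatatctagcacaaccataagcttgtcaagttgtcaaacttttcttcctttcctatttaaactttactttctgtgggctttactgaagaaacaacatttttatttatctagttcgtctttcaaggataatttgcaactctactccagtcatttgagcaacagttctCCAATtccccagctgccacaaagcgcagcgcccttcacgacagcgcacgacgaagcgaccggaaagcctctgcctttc
Pdk2: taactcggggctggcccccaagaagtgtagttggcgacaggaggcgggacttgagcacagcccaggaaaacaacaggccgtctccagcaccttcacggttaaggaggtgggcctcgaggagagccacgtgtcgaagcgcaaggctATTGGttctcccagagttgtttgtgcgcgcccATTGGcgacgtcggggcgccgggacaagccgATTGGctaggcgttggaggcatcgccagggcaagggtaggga
The windows differ in base composition, with 61.6% G and C for Pdha1, 43.6% for Dld and 62.4% for Pdk2. Searched on both strands, CCAAT was found for 6 of the 10 genes (Pdhb, Dld, Pdk2, Pdk4, Mpc1 and Mpc2), in 6 of their 13 windows, and in 33.8% of all 32851 windows of the same length. The letters TNAAGGTCA (an ERR site, in 1.14% of all windows), GCGC and TGCGC with 1 base between (NRF1, 3.74%), a pair of AGGTCA with 1 base between (a PPAR direct repeat whose units share AGGTCA with the ERR letters, 0.0335%) and GTAAACA (FOXO, 3.17%) were found in 0 of the 13 windows.

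Genes around the complex were counted as 6 lists drawn up from textbook pathways, 42 of whose 43 genes were tested. Like the members, the lists were chosen with earlier results of these data known, so their counts are a description and not independent evidence. On casein 22 of the 42 rose and 0 fell in edgeR, where 3.35% of all tested genes rose. On elemental amino acids 2 rose (Bsg and Crat), where 0.244% of tested genes were called in either direction. In the test of the difference 0 passed, where 0% of tested genes did. Casein controls were lower than elemental controls for 8 of the 42, where 0.646% of tested genes were lower. These shares also apply to the counts of each list below.

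Of the 4 other regulators of the complex, the phosphatase Pdp2 rose 1.76-fold on casein (log2 SE 0.20, edgeR adjusted p = 0.0223). Pdk3, the remaining kinase, stood at 8.29 CPM in elemental controls and 8.43 CPM in casein controls and did not pass (adjusted p = 0.617 on casein), nor did the phosphatase Pdp1 or its regulator Pdpr. Of the 5 genes that supply lipoate to the complex, Lipt1 (1.74-fold, adjusted p = 0.0104) and Mecr (1.53-fold, adjusted p = 0.0482) rose on casein. Of the 7 genes of the sister 2-oxoacid dehydrogenases, 6 rose on casein. They were Ogdh (1.89-fold) and Dlst (1.77-fold) of the oxoglutarate complex, Bckdha (1.54-fold), Bckdhb (1.504-fold) and Dbt (1.61-fold) of the branched-chain complex, and its kinase Bckdk (1.56-fold, adjusted p = 0.00402). The list median on casein was 0.64 log2, beside -0.06 for all tested genes.

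Other routes of pyruvate held 14 tested genes, of which 8 rose on casein, with a list median of 0.69. Pcx, which carboxylates pyruvate to oxaloacetate, rose 1.80-fold (adjusted p = 0.00651), and Pkm, the glycolytic enzyme that makes pyruvate, 1.96-fold (adjusted p = 0.0323). Ldhb rose 1.88-fold and Ldhd 1.77-fold, the malic enzymes Me1 1.80-fold and Me3 2.28-fold, the monocarboxylate transporter Slc16a1 2.06-fold and its chaperone Bsg 1.47-fold. The level of Me3 was low, with means of 1.29 CPM in casein controls, 2.95 CPM in oxidized casein MR and 3.65 CPM in elemental controls. Between the control diets 5 of the 14 were lower on casein, namely Pcx, Ldha, Pkm, Me1 and Me3, by 1.62-fold (Ldha) to 2.81-fold (Me3).

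All 4 genes of acetyl-CoA and citrate handling rose on casein. Acly, which splits exported citrate for lipid synthesis, rose 2.63-fold (log2 SE 0.31, edgeR adjusted p = 0.0113), the citrate exporter Slc25a1 1.92-fold (adjusted p = 0.0104), citrate synthase Cs 1.71-fold (adjusted p = 0.0122) and the acetyl-carnitine enzyme Crat 1.80-fold (adjusted p = 0.00127). Acly was 4.10-fold lower (adjusted p = 0.00427) and Slc25a1 2.66-fold lower (adjusted p = 0.00247) in casein controls than in elemental controls. Crat did not pass between the control diets.

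Of the 8 factors known to bind or induce Pdk4, Esrra rose 1.69-fold on casein (log2 SE 0.20, edgeR adjusted p = 0.0308). Ppargc1a, a coactivator, had a ratio of 1.68 on casein (adjusted p = 0.0523) and 1.63 on elemental amino acids (adjusted p = 0.187), neither of which passed. Foxo1 had a ratio of 0.81 on casein (adjusted p = 0.168).

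**Figure D5:**
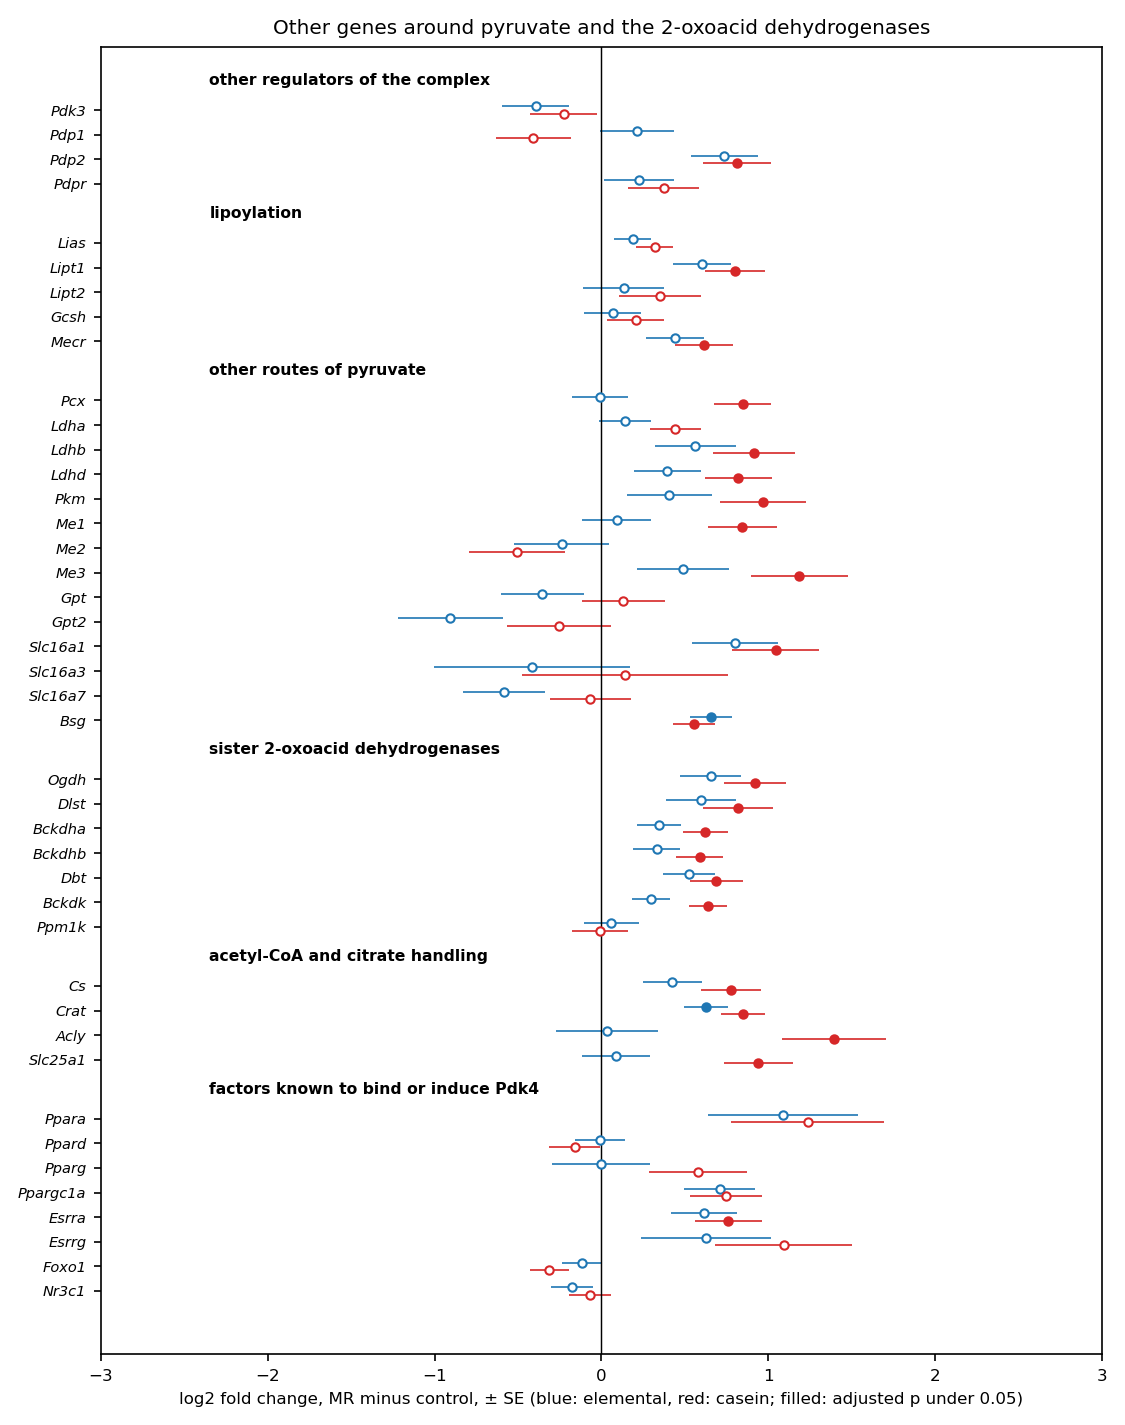
Log2 fold change with MR and its SE for the 42 tested genes around pyruvate (rows, by list), in blue on elemental amino acids and in red on casein, filled where the adjusted p is under 0.05 in edgeR. On casein 22 symbols are filled, all to the right of 0, and on elemental amino acids 2.

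The genes whose profiles over the 24 libraries lay nearest to these were found as the smallest root mean square (RMS) difference of centred log2 CPM among 15166 other genes. The libraries share diet, depth and tissue content, so these are descriptions. Nearest to the mean of the 5 complex subunits, whose SD over libraries was 0.63 log2, were Cox5a (RMS 0.11) and Cyc1 (0.12) of the respiratory chain, then Uqcrq (0.13), Ldhb (0.14) and Suclg1 (0.14). Each subunit was compared with the mean of the other 4 subunits, which does not contain it: the RMS was 0.10 for Dlat, 0.11 for Pdha1, 0.16 for Pdhx, 0.17 for Pdhb and 0.19 for Dld. The distances of the other members to the mean of the 5 subunits were 0.17 for Mpc2, 0.32 for Pdk2, 0.38 for Pdk1, 0.42 for Mpc1 and 1.07 for Pdk4. To that same mean, which contains them, the subunits ran from 0.08 (Dlat) to 0.16 (Dld), below Mpc2. The distance of Mpc2 was within the 0.10 to 0.19 of the subunits to the mean of the other 4, which is a different reference. Nearest to Mpc2 was cytochrome c, Cycs (0.17). Nearest to Pdk2 were Hsd17b12 (0.16), Echdc1 (0.17) and Crat (0.18), and nearest to Pdk1 was Rmnd1 (0.21). Mpc1 had mt-Tm (0.32) and mt-Nd2 (0.35) nearest, and Pdk4 had Ehhadh (0.66), at an SD of its own of 1.46.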

How the data were processed

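Counts per gene were made by the authors from 50 bp single-end 3′ mRNA reads of 24 IWAT libraries, per the labels' protocols. R 3.4.3, DESeq2 1.18.1, GRCm38 and mm10 are named in the submitters' processing notes, while for the aligner, counter and strand setting nothing is stated there. The deposited normalized signal equals these counts divided by a size factor per library (largest relative difference 5.3e-15), and served to find the 10 genes. Raw counts were tested in edgeR 4.0.16 (R 4.3.3) with quasi-likelihood F tests (2-sided, robust, TMM scaling, filterByExpr), with 1 mean per diet fitted to all 24 libraries, Benjamini-Hochberg adjustment over 15176 genes and a threshold of 0.05. Log2 CPM used a prior count of 2. The SE of an edgeR log2 fold change was derived as its absolute value divided by the square root of the F statistic. Mice carry individual numbers in the labels, and replicate numbers follow accession order. All members, companion genes past the threshold or needed for a level, and the genes nearest in profile were named. The members and the lists were chosen with earlier results of these data known. The fit was run on simulated counts drawn independently for each gene, with no lymph node, muscle or liver content varying between libraries. That run checked the code only and cannot speak to such content in these libraries. Alternatives were DESeq2 1.42.0, limma voom 3.58.1, other scaling, no filter, a B cell covariate and subsets of libraries. Library totals of 7468336 to 19868913 set the counting precision, and the spread between mice was used as the error.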

Additional observations from a re-analysis of the deposited data

Results flagged for a closer look

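Pdk4 in elemental MR 3 stood at 80.88 CPM, far below the other 5 elemental MR mice, which lay between 235.7 and 299.9 CPM. Its gap to the nearest mouse was 0.816 of the range of the group on the log2 scale, above the critical value of Dixon's test. It was the 1 extreme library found in 40 gene and diet groups, and chance alone marks about 1 in 20 groups.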

How the results depend on the processing

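The count of the 10 genes passing with MR on casein was 8, and 8 to 10 under DESeq2, limma voom, RLE scaling, no filter, the B cell covariate, without libraries high in Acta1 or Alb, and with the diets compared alone. It was 0 among libraries with B cell transcripts and 3 among those without, where 5 of 15644 and 172 of 15820 genes were called at all. With MR on elemental amino acids it was 0, and 1 under DESeq2 (213 of 12506 genes) or the B cell covariate (200 of 15176). Between the control diets it was 6, 5 in libraries with B cell transcripts (177 of 15644 genes), 8 under DESeq2 or the B cell covariate, and 0 in libraries without B cell transcripts (0 of 15820) and with the diets compared alone (2 of 14628). The cause was not tested, although the subsets hold fewer libraries. Leaving out 1 mouse gave 8 to 9 with MR on casein (9 without casein control 3, where 568 of 15389 genes were called). With MR on elemental amino acids it gave 0 to 3. The 3 (Pdk2, Pdhx and Mpc2) passed without elemental control 1, where 252 of 15431 genes were called, against 37 of 15176 with all mice. Between the control diets it gave 2 to 7 (2 without elemental control 3, 24 of 15263 genes, and 7 without elemental control 2, 202 of 15243, or elemental control 4, 194 of 15236). In the other 2 comparisons it gave 0 throughout. Over 1200 fold changes with 1 mouse left out, 4 changed sign. For Pdk2 in oxidized casein MR against elemental MR the value of -0.06 (range -0.097 to 0.027 over these fits) became 0.0043 without elemental MR 3, 0.027 without elemental MR 4 and 0.0054 without oxidized casein MR 2. For Pdk1 in the difference between the MR effects, 0.08 (range -0.063 to 0.18) became -0.063 without casein control 5. No other alternative reversed a fold change. No paired analysis was possible because replicate numbers follow accession order and mice were not paired across diets in the labels.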
